A study of Caenorhabditis elegans with 6 samples.

Results

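The mitochondrial quality-control proteases and prohibitins of Caenorhabditis elegans were followed here as 6 genes, of 17138 with a probe set of their own: lonp-1 (Lon), clpp-1 (ClpP), ymel-1 (i-AAA protease), spg-7 (m-AAA protease), phb-1 and phb-2 (prohibitins). They were taken as every probe set that the platform annotation maps to 1 of these symbols alone, which gave 8 probe sets of the 22548 on the array that are not controls. The genes lonp-1 and clpp-1 have 2 probe sets each and the other 4 genes have 1. All 8 probe sets lay above the 40th percentile of signal on each of the 6 arrays, and all 8 were among the 13792 tested.

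RNA of whole worms at the fourth larval stage (L4) was hybridised to Affymetrix arrays in 2 genotypes, with 3 biological replicates of each. The first group was the wild-type strain N2. The second was atfs-1(et18), worms with the et18 point mutation in the gene of ATFS-1, a bZIP factor that turns on the mitochondrial unfolded protein response, an allele known to act as a gain of function. Both groups were synchronised by bleaching, grown on solid medium and fed E. coli OP50. A level measured in whole worms does not tell a change in RNA per cell from a change in the share of a cell type.

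Mitochondria keep their proteins in order with proteases that belong to the AAA+ family or work with it. In the matrix, Lon unfolds and degrades damaged proteins within one ring-shaped enzyme, while ClpP is a peptidase barrel that depends on the separate unfoldase ClpX. In the inner membrane, the i-AAA protease works on the side of the intermembrane space and the m-AAA protease on the matrix side. The prohibitins PHB-1 and PHB-2 assemble together into large ring complexes in the inner membrane that bind the m-AAA protease and act as a membrane scaffold. In C. elegans, Lon is known to degrade ATFS-1 that has been imported into mitochondria, ClpP is known to be needed for signalling in the mitochondrial unfolded protein response, and loss of SPG-7 or of the prohibitins is a standard way to induce that response. The comparison asks how the RNA levels of this set differ when ATFS-1 carries the et18 mutation.

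Both prohibitin genes were higher in atfs-1(et18) worms, phb-2 by 1.56-fold and phb-1 by 1.50-fold. The Lon gene lonp-1 had a difference of about the same size, 1.49-fold and 1.54-fold on its 2 probe sets. Neither passed the threshold (limma adjusted p = 0.0501 and 0.107). The i-AAA gene ymel-1 and 1 of the 2 clpp-1 probe sets were 1.37-fold and 1.38-fold higher in the mutant without passing the threshold, and spg-7 and the other clpp-1 probe set had overlapping groups. No probe set of the 6 genes fell.

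Counted over the 8 probe sets, 2 rose and 0 fell (limma, Benjamini-Hochberg adjusted p under 0.05), where 2.63% of all probe sets tested rose and 1.30% fell. In 6 of the 8, the 3 mutant arrays all lay above the 3 wild-type arrays, which was so for 12.5% of all probe sets tested. The same 6 had an unadjusted p under 0.05, against 9.64% of all probe sets that were higher at that level. The change was positive in all 8 (49.1% of all probe sets), with a median of 0.52 on the log2 scale beside -0.01 over all probe sets tested. The 8 probe sets are not 8 independent observations, since 2 genes have a pair each and all were read on the same arrays.

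**Figure D1:**
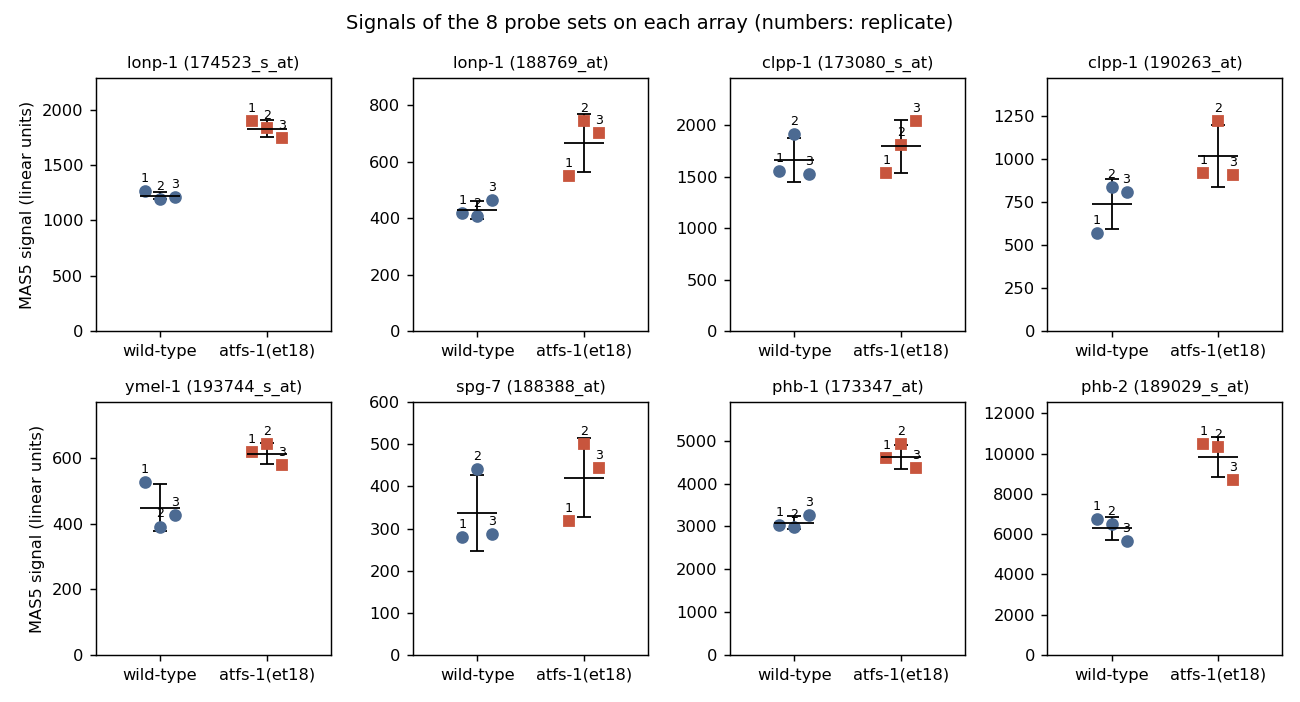
Signal (linear MAS5 units, axes from 0) of each of the 8 probe sets on each of the 6 arrays. Circles are wild-type, squares atfs-1(et18), digits give the replicate, and the bar and whiskers are mean ± SD (n = 3). The 2 genotypes are apart in 6 panels and overlap for clpp-1 on 173080_s_at and for spg-7.

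Among the prohibitins, phb-2 (T24H7.1) had signals of 6731, 6511 and 5639 in wild-type and 10461, 10333 and 8676 in mutant animals. Its probe set is 189029_s_at, where the suffix _s_at marks probes that can bind more than 1 transcript. Every mutant array lay well above every wild-type array, and replicate 3 was the lowest of its group in both genotypes. The rise was 0.64 ± 0.14 on the log2 scale (SE), with a 95% interval of 1.25-fold to 1.95-fold (limma adjusted p = 0.0421).

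Its partner phb-1 (Y37E3.9) had signals of 3026, 2977 and 3264 in wild-type and 4603, 4916 and 4352 in mutant animals. The groups were again clearly apart, and in this case wild-type replicate 3 was the highest of its group. The rise was 0.58 ± 0.13 on the log2 scale (SE), with a 95% interval of 1.22-fold to 1.83-fold (limma adjusted p = 0.0429).

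Because the 2 proteins form 1 complex, the change of the phb-2 signal relative to that of phb-1 within each array was also compared. This ratio differed by 0.06 on the log2 scale between the genotypes, and its SD was 0.20 among wild-type and 0.10 among mutant arrays (n = 3 each). The genotypes overlapped in the ratio (exact two-sided permutation p = 0.8, and 0.8 adjusted over the 3 ratios compared, where 3 arrays against 3 cannot give less than 0.1). The 2 probe sets had r = 0.92 over the 6 arrays, and 0.07 after the mean of each genotype was taken away. With 3 arrays a genotype, the second value cannot tell whether they share more than the genotype difference.

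Both prohibitin calls lay close to the threshold. Leaving out 1 array ended the phb-1 call whichever array it was, with adjusted p from 0.0518 without wild-type replicate 1 to 0.193 without atfs-1(et18) replicate 1, and ended the phb-2 call for every array but wild-type replicate 1 (0.0366), with adjusted p from 0.0538 without atfs-1(et18) replicate 3 to 0.219 without atfs-1(et18) replicate 1. Over all 19 alternatives the log2 change itself lay between 0.54 and 0.63 for phb-1 and between 0.56 and 0.78 for phb-2. Other filters, other variance priors and the replicate block cannot alter this change, nor can the mean of probe sets for a gene with 1. The ranges therefore come from the scalings, offsets, array weights, germline covariate and arrays left out.

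The matrix protease gene lonp-1 (C34B2.6) was measured by 2 probe sets. On 174523_s_at, whose suffix also marks probes that can bind more than 1 transcript, the signals were 1263, 1197 and 1214 in wild-type and 1903, 1833 and 1748 in mutant worms. The same suffix stands on the probe sets of ymel-1, stl-1 and atad-3 described below, and on the brighter probe set of clpp-1. The 3 wild-type arrays were almost equal, and the lowest mutant array was far above them. The log2 difference was 0.58 ± 0.13 (SE, 95% interval 1.21-fold to 1.84-fold, limma adjusted p = 0.0501). The unadjusted p was 0.00198, where the largest unadjusted p among the calls was 0.00196.

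On the second lonp-1 probe set, 188769_at, the signals were 418, 406 and 465 in wild-type and 551, 746 and 703 in mutant worms. The groups did not overlap here either, but the mutant arrays spread more, with replicate 1 the lowest of them. The log2 difference was 0.62 ± 0.18 (SE, 95% interval 1.17-fold to 2.04-fold, limma adjusted p = 0.107). Relative to the first probe set the genotypes differed by only 0.05 on the log2 scale (exact two-sided permutation p = 0.8), so the probe sets gave the same size of difference within their spread. With the mean of both probe sets as the value of the gene, in a fit over all genes, the lonp-1 change was 0.60 ± 0.13 (SE) and passed the threshold (limma adjusted p = 0.0414). Besides this mean, the gene passed on 174523_s_at in 7 of 18 alternatives, with limma adjusted p between 0.00954 and 0.233. On 188769_at it passed in 0 of 18 (0.0645 to 0.317).

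For the ClpP peptidase gene clpp-1 (ZK970.2) the 2 probe sets gave different values. On 173080_s_at the signals were 1554, 1911 and 1530 in wild-type and 1533, 1812 and 2046 in mutant worms. The groups were fully mixed, with the lowest mutant array between the 2 lowest wild-type arrays. The log2 difference was 0.11 ± 0.17 (SE), with a 95% interval from 0.83-fold to 1.40-fold (limma adjusted p = 0.809).

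On 190263_at the clpp-1 signals were 571, 835 and 806 in wild-type and 917, 1222 and 907 in mutant worms. Here the mutant arrays all lay above the wild-type arrays, the gap between the groups being smaller than the range within either. The log2 difference was 0.47 ± 0.21 (SE, limma adjusted p = 0.290). The within-array ratio of the 2 clpp-1 probe sets was 0.36 higher in the mutant on the log2 scale, with SDs of 0.26 and 0.31 and overlapping groups (exact two-sided permutation p = 0.2, 0.6 adjusted over the 3 ratios). A difference between the 2 probe sets was therefore not resolved with 3 arrays a genotype. Their mean gave a clpp-1 change of 0.29 ± 0.16 (SE, limma adjusted p = 0.403).

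The i-AAA protease gene ymel-1 (M03C11.5) had signals of 529, 392 and 427 in wild-type and 618, 642 and 579 in mutant animals. The mutant arrays were close together and all above the wild-type arrays, of which replicate 1 was the highest. The log2 difference of 0.46 ± 0.17 (SE, 95% interval 1.05-fold to 1.81-fold) was not called (limma adjusted p = 0.222). It passed in 1 of 19 alternatives, with array weights (adjusted p = 0.0350).

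The m-AAA protease gene spg-7 (Y47G6A.10) had the largest SE of the 8 probe sets. Its signals were 281, 441 and 288 in wild-type and 319, 500 and 445 in mutant worms. Replicate 2 was the highest in both genotypes, and the mutant exceeded the wild-type in 8 of the 9 possible pairs of arrays. The log2 difference was 0.33 ± 0.25 (SE, 95% interval 0.85-fold to 1.87-fold, limma adjusted p = 0.570). These arrays therefore leave room for a spg-7 difference as large as that of phb-2, as well as for none. Whether the change of spg-7 or of clpp-1 differs from that of the prohibitins was not tested.

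**Figure D2:**
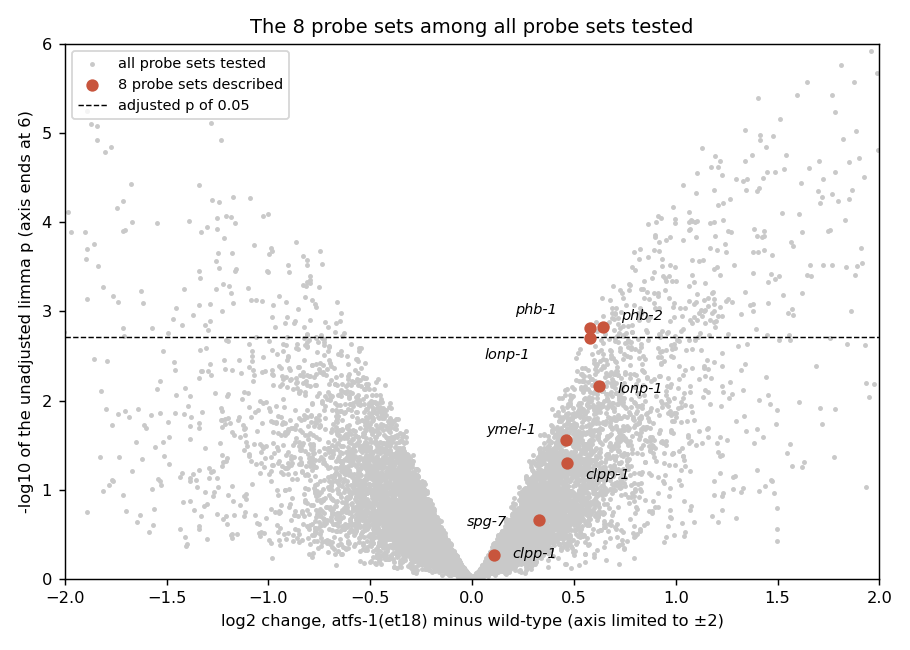
Log2 change (atfs-1(et18) minus wild-type, axis limited to ±2) against -log10 of the unadjusted limma p (axis ending at 6) for all 13792 probe sets tested (grey) and the 8 described (red). The dashed line is the adjusted p of 0.05. Both prohibitins lie just above it, lonp-1 on 174523_s_at just below, and all 8 lie to the right of 0.

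The probe sets differed in their pattern over the arrays, described here by correlations of log2 signals over 6 arrays, which share the genotype difference. With lonp-1 (174523_s_at) the correlation was 0.97 for phb-1, 0.97 for phb-2 and 0.90 for ymel-1. After the genotype means were taken away these values were 0.30, 0.73 and 0.70. In these 4 genes no wild-type array reached the lowest mutant array. The 2 lonp-1 probe sets had r = 0.86 with each other, and -0.56 after the genotype means were taken away. Another pattern was that of clpp-1 (173080_s_at) and spg-7, which had r = 0.88 with each other and 0.87 after the genotype means were taken away. Their correlations with lonp-1 were 0.20 and 0.41. Both were lower in wild-type replicates 1 and 3 than in wild-type replicate 2, and both were lowest among the mutant arrays in replicate 1. The other clpp-1 probe set, 190263_at, lay between these patterns, with r = 0.68 with lonp-1 (174523_s_at), 0.79 with phb-1, 0.74 with spg-7 and 0.42 with 173080_s_at.

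The genes whose log2 signals were most like each member over the 6 arrays were found among the 13075 other tested probe sets with 1 symbol. For lonp-1 these were the C-type lectin gene clec-4 (r = 0.998), D2030.2, a ClpX homologue (0.998), and the ATP citrate lyase gene acly-1 (0.997). All 3 rose in the mutant, by 2.73, 1.07 and 0.69 on the log2 scale (limma adjusted p = 0.000165, 0.00751 and 0.0217). For phb-1 they were C24B5.4, T26C5.4 and the ubiquinone synthesis gene coq-1 (r of at least 0.999), which rose by 1.33, 2.02 and 1.09 on the log2 scale (limma adjusted p = 0.00397, 0.00174 and 0.00751).

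For phb-2 the most alike were ugtp-1, the arginyltransferase gene ate-1 and ttc-1 (r = 0.996, 0.992 and 0.992). Of these ttc-1 rose, by 0.91 ± 0.18 on the log2 scale (SE, limma adjusted p = 0.0257). For ymel-1 they were the autophagy gene lgg-3, aap-1, which encodes the adaptor subunit of phosphoinositide 3-kinase, and ZK632.11 (r from 0.996 to 0.999). For clpp-1 they were mel-46, F21H7.2 and F32B5.7 (r from 0.987 to 0.992), and for spg-7 Y55F3AM.5, vps-37 and the parkin homologue pdr-1 (r from 0.981 to 0.994). None of the genes most like ymel-1, clpp-1 or spg-7 passed the threshold (limma adjusted p from 0.312 to 0.821). For each of the 6 members, whatever its change, the most alike genes had r of at least 0.981 over these 6 arrays. Among the members themselves, phb-1 ranked 91st and phb-2 140th in likeness to lonp-1, and spg-7 ranked 42nd in likeness to clpp-1.

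The other mitochondrial proteases and the proteins that work with them were read from a list of 15 genes, of which 13 were on the array and 11 passed the filter on dim probe sets. Of the 11, 5 rose and 0 fell, beside 2.69% of 10613 genes tested that rose and 1.37% that fell, each gene read by its brightest probe set. The median change was 0.58 on the log2 scale, where it was 0.52 over the 6 genes above and 0.00 over all genes tested. This list includes lonp-2 (0.50 ± 0.21 SE, limma adjusted p = 0.260), a homologue of the peroxisomal rather than the mitochondrial Lon protease. The median without lonp-2 was not computed. The 2 genes that did not pass the filter, K07A3.3 and icpp-55, lay above the 40th percentile on 1 and 0 of the 6 arrays.

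The largest change in this list was that of stl-1, which encodes a stomatin-like protein of the same SPFH family as the prohibitins. It rose 2.53-fold (log2 change 1.34 ± 0.15 SE, limma adjusted p = 0.00178), and the call held in all 18 alternatives run for it. The signals of D2030.2, a homologue of the ClpX unfoldase that feeds ClpP, stood at 459, 426 and 434 in wild-type and at 1001, 962 and 810 in mutant worms. Its wild-type arrays were nearly equal and its mutant arrays far above them. The rise was 2.09-fold (limma adjusted p = 0.00751) and held in 17 of 18 alternatives. D2030.2 thus passed the threshold while clpp-1 did not, although the difference between the 2 changes was not tested.

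A second m-AAA subunit gene, ppgn-1 (paraplegin), had signals of 672, 597 and 803 in wild-type and 1118, 1134 and 1184 in mutant animals. The groups were apart, with the mutant arrays close together. The rise was 1.67-fold (log2 change 0.74 ± 0.16 SE, limma adjusted p = 0.0413) and held in 9 of 18 alternatives. The other ppgn-1 probe set did not pass the filter on dim probe sets and was not tested. Besides these, bcs-1, a homologue of the AAA protein that inserts the iron-sulfur subunit of respiratory complex III, rose 1.96-fold (adjusted p = 0.0264, 12 of 18 alternatives), and atad-3, an AAA protein of the inner membrane, rose 1.50-fold (adjusted p = 0.0484, 7 of 18). The 2 genes of the list with a negative change, named after their values were seen, were the rhomboid protease gene rom-5 (-0.15 ± 0.49) and the inner membrane peptidase gene immp-2 (-0.14 ± 0.18).

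In the list of 6 mitochondrial chaperones, 2 rose and 0 fell, beside 2.69% and 1.37% of all genes tested. On the brightest probe sets all 6 changes were positive (50.6% of all genes tested), with a median of 0.45 on the log2 scale. A dimmer probe set in this list had a change of -0.05 ± 0.26 (SE). The genes that rose were dnj-10, a mitochondrial DnaJ protein (2.14-fold, limma adjusted p = 0.00938), and C34C12.8, the homologue of the nucleotide exchange factor GrpE (1.88-fold, adjusted p = 0.00697). The mitochondrial Hsp70 gene hsp-6, on its brightest probe set, had a log2 difference of 0.61 ± 0.16 (limma adjusted p = 0.0773), about that of phb-2. Its other probe set gave 0.83 ± 0.20 (limma adjusted p = 0.0555). The chaperonin gene hsp-60 had 0.17 ± 0.16 (limma adjusted p = 0.663), about that of clpp-1 on its brighter probe set, and 0.30 ± 0.19 on its other probe set (limma adjusted p = 0.465).

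**Figure D3:**
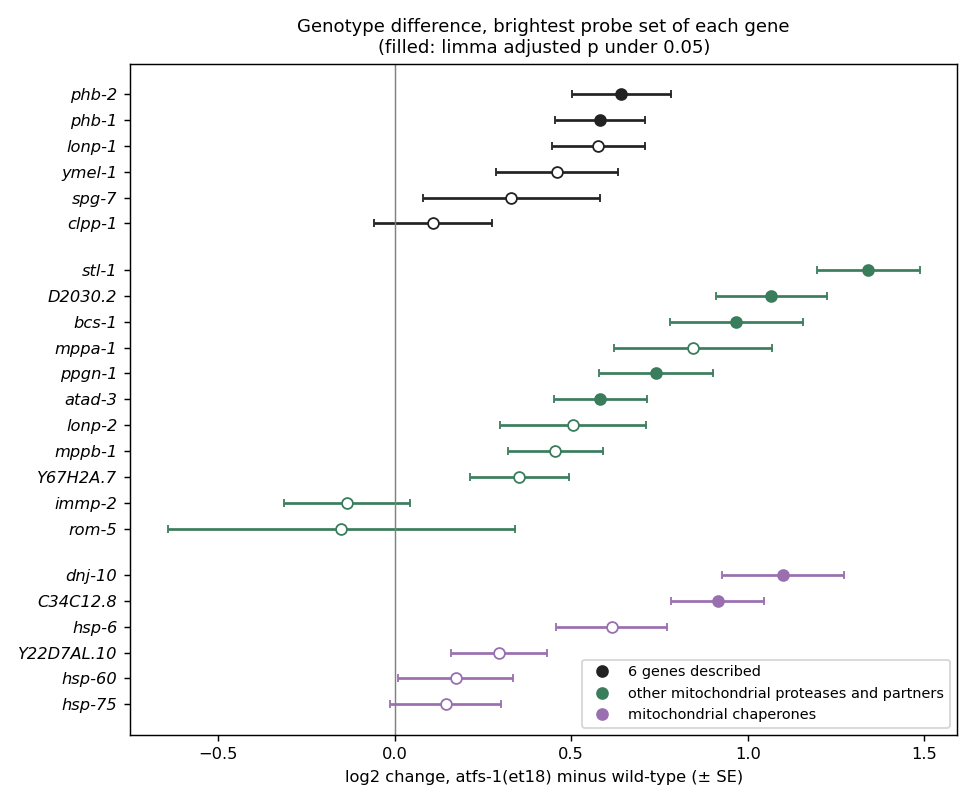
Log2 change (atfs-1(et18) minus wild-type, points, with SE as whiskers) of each tested gene on its brightest probe set, grouped by list. Filled points passed an adjusted p of 0.05 (limma over all 13792 probe sets). In the 3 lists 2 of 6, 5 of 11 and 2 of 6 genes are filled, all to the right of 0.

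In C. elegans, genes that lie next to each other are often transcribed together as operons, so the nearest protein-coding gene on either side of each member in the gene table was read as well, a choice made after the data were seen. Of these 12 neighbours 9 were tested, 2 rose and 0 fell (2.69% and 1.37% of all genes tested), and their median change was -0.01 on the log2 scale. The neighbours that rose were ttc-1 (C34B2.5), next to lonp-1, and Y47G6A.14, next to spg-7. The ttc-1 signals were 604, 578 and 506 in wild-type and 1101, 1220 and 876 in mutant worms, a rise of 1.88-fold. Those of Y47G6A.14 were 143, 132 and 84.8 in wild-type and 253, 287 and 258 in mutant worms (log2 change 1.19 ± 0.25 SE, limma adjusted p = 0.0384). Both groups of arrays were apart for each of these neighbours. On the other side, spcs-1 beside lonp-1 had a change of 0.33 ± 0.14 (SE, limma adjusted p = 0.2875). Y47G6A.15, beside spg-7, had -0.73 ± 0.32 (SE, limma adjusted p = 0.2893). Beside phb-1, the ribosomal protein gene rpl-27A had a change of -0.18 ± 0.15, and the neighbours of phb-2 had 0.27 ± 0.25 for T24H7.2 and -0.29 ± 0.22 for dbd-5 (SE, limma adjusted p from 0.572 to 0.654 for these 3). None of the 3 tested genes beside the prohibitins passed the test.

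Markers of the tissues in a whole worm also moved over these arrays. Of all genes tested, 50.6% had a positive change, 2.69% rose and 1.37% fell. The 3 mutant arrays lay below the 3 wild-type arrays in 10.8% of all probe sets tested, a share not computed for list means. The germline list was higher in the mutant in 20 of 24 genes, with 0 called, and its mean log2 signal, set against its own mean over the 6 arrays, was 0.38, -0.35 and -0.51 in wild-type replicates 1 to 3 and 0.09, 0.00 and 0.38 in the mutant replicates, so the groups overlapped. The body wall muscle list was lower in the mutant in 13 of 13 genes, with 0 called, between 0.08 and 0.23 in wild-type and between -0.20 and -0.13 in mutant arrays, without overlap. The intestine list was lower in 6 of 9 genes, of which 1 fell (the cathepsin B-like gene cpr-1, log2 change -2.77 ± 0.19 SE). The mean of this list lay between -0.09 and 0.33 in wild-type and between -0.40 and -0.05 in mutant arrays. Changes of the other genes in the list ran from -0.40 to 0.30, so its mean rests largely on cpr-1. The mean of the 6 genes lay between -0.30 and -0.16 in wild-type and between 0.15 and 0.31 in mutant arrays.

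With the germline list mean as a covariate, phb-1, phb-2 and lonp-1 (174523_s_at) had adjusted p = 0.0273, 0.0471 and 0.0458, and clpp-1 on 190263_at passed too, with a log2 change of 0.705 (adjusted p = 0.0458). The part of the muscle and intestine lists in these results was not tested. Without wild-type replicate 1 and atfs-1(et18) replicate 3, the arrays with the highest germline mean of their genotype, the log2 change of phb-2 was 0.78 (adjusted p = 0.0261) and that of phb-1 was 0.61 (adjusted p = 0.0694), leaving 1 of the 8 probe sets past the threshold.

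**Figure D4:**
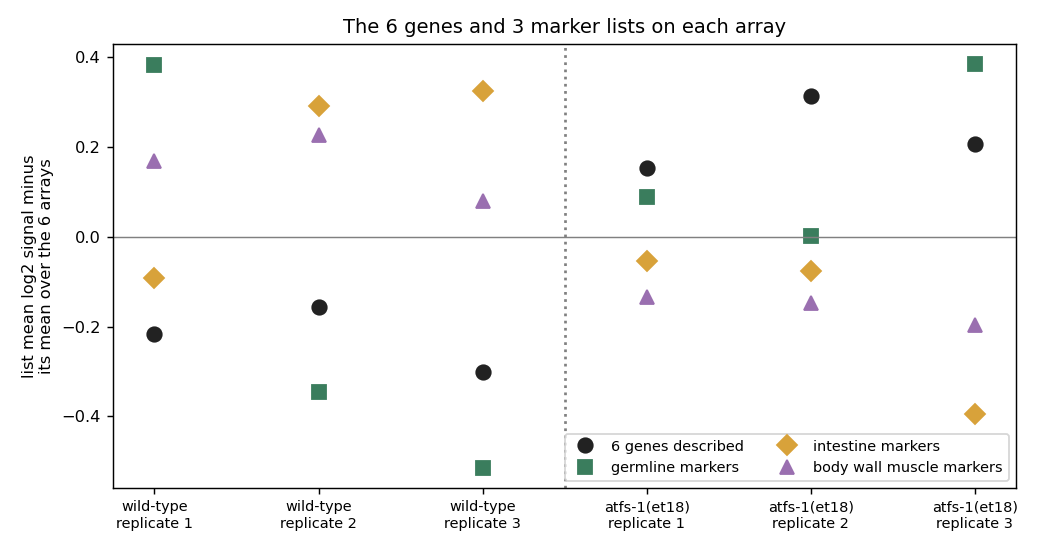
Mean log2 signal of the 6 genes and of 3 marker lists on each array, as the distance from its mean over the 6 arrays (vertical axis). Each gene is read by its brightest probe set. The 6 genes are below 0 on all wild-type and above 0 on all mutant arrays, the muscle list is the reverse, and the germline list is highest in wild-type replicate 1 and atfs-1(et18) replicate 3.

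**Figure D5:**
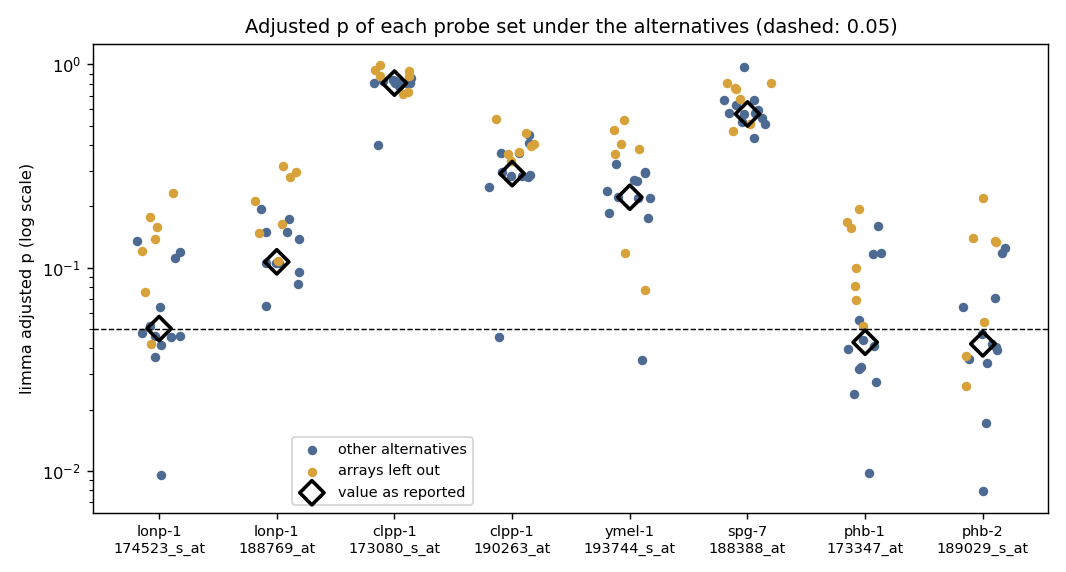
Limma adjusted p (log axis) of each of the 8 probe sets as reported (diamonds), with arrays left out (yellow) and under the other alternatives (blue). The dashed line is 0.05. The values of phb-1, phb-2 and lonp-1 (174523_s_at) lie on both sides of it, while those of lonp-1 on 188769_at, clpp-1 on 173080_s_at and spg-7 all lie above it.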

How the data were processed

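The deposited intensity values are linear MAS5 signals per probe set, per the submitters' processing notes; their version, target for scaling and detection calls were not stated there. The mean after trimming 2% at each end was 500.2 on each array. Log2 signals were taken without an offset. Control probe sets (77) were dropped, and testing needed a signal above the array's 40th percentile on at least 3 of the 6 arrays. Genotypes were compared by linear models in limma 3.58.1 and R 4.3.3 (eBayes moderation with a trend on intensity; two-sided p, Benjamini-Hochberg adjusted over 13792 probe sets). The number of arrays limits the precision. Gene names came from the platform annotation, updated by gene identifier from the gene table of assembly WBcel235 (20701 of 20766 probe sets with 1 symbol). No coordinates or sequences are given.

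The genes and lists were chosen with earlier results of these data known. Genes named were the members, called genes of the 2 mitochondrial lists and the marker lists, hsp-6 and hsp-60, and for each member the 3 most correlated genes. Outside this rule, and chosen after their values were seen, are the neighbouring genes, rom-5, immp-2, lonp-2, K07A3.3 and icpp-55. The symbols mip-1 and trap-1 had been listed for a peptidase and a chaperone, but in the worm they name other genes, so they were left out. Alternatives were 2 scalings, offsets of 16 and 64, other filters and variance priors, array weights, a replicate block, a germline covariate, the mean of probe sets, and arrays left out. One of these, leaving out 2 arrays together, was chosen after seeing the data. Exact permutation tests used scipy 1.17.1, and figures matplotlib 3.10.9.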

Additional observations from a re-analysis of the deposited data

How the results depend on the processing

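The count of 2 rising probe sets among the 8 became 0 with median centring, no filter, no intensity trend or the replicate block, 4 with array weights or the germline covariate and 1 without wild-type replicate 1 and atfs-1(et18) replicate 3, and ran from 0 to 2 when 1 array was left out; no probe set fell under any of these. The count over all probe sets, 542, became 1637 with array weights, 336 with the replicate block and 959 with the germline covariate, and ran from 176 to 867 when 1 array was left out. Of the other mitochondrial proteases, 5 of which rose, 3 rose with quantile normalization, median centring or without the 2 arrays together, and 2 with no intensity trend or the replicate block, with 1 to 4 when 1 array was left out. With array weights 7 of these proteases rose, and with the germline covariate 6. The count of 2 chaperones ran from 1 to 2 when 1 array was left out. It was 3 with quantile normalization, array weights or the germline covariate. Changes that turned sign were those of clpp-1 on 173080_s_at (-0.0701 with array weights, and from -0.0368 without the 2 arrays to 0.217 when arrays were left out), spg-7 (-0.0174 with array weights) and rom-5 (0.0867 with array weights, 0.137 with the germline covariate, 0.329 without the 2 arrays, and from -0.190 to 0.347 when 1 array was left out), none of them called; the cause was not tested. The labels number the replicates without saying whether same-numbered arrays were handled together. Deviations of same-numbered arrays correlated at 0.17, 0.18 and -0.40, and those of differently numbered arrays at -0.50 to 0.48. With 3 arrays a genotype these values cannot tell whether the numbers pair the arrays. The block cannot alter the log2 changes in this balanced design, and with it phb-1 and phb-2 had limma adjusted p = 0.119 and 0.0637. All 8 probe sets were above the 40th percentile of signal on every array; no detection calls were used, so signal over background was not measured.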
